A study of Mus musculus with 12 samples.

Results

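The serpin genes of the mouse were followed one by one in the hippocampus of *Dek* knockout mice. Members were all protein-coding genes whose GENCODE M21 symbol begins with Serpin, with the exception of *Serpina3n*, and whose value was above 0 in at least 1 of the 12 libraries, which gave 50 of the 26409 listed genes. A further 10 protein-coding serpin genes were listed at 0 in every library (*Serpina1e*, *Serpina7*, *Serpinb3a*, *Serpinb3b*, *Serpinb3c*, *Serpinb3d*, *Serpinb6d*, *Serpinb9e*, *Serpinb9f* and *Serpinb9g*), and 7 serpin pseudogenes were not considered.

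Bulk RNA sequencing was performed on microdissected hippocampus from adult mice in 4 groups of 3 libraries, since WT and *Dek* cKO animals of each sex were taken. DEK is a chromatin-associated protein, and cKO stands for constitutive knockout. In this line, loxP sites placed around exons of *Dek* were recombined by a CMV-Cre transgene in the germ line, the transgene was then bred out, and the deleted allele was kept by mating heterozygotes, so the deletion is present in every cell type from conception. All animals, WT included, had been through behavioural tests, and the labels name no other treatment. Values are in TPM, a length-corrected share of the transcripts of each library, and the read depth behind them is unknown.

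*Dek* was at 44.2 to 51.9 TPM in the 6 WT libraries and at 5.55 to 9.25 TPM in the 6 cKO libraries. The Y-linked genes *Eif2s3y* and *Ddx3y* went against the label in 2 libraries, the library labelled female cKO 3 (72.7 and 20.4 TPM) and the library labelled male cKO 1 (0.111 and 0 TPM), so the comparisons by sex below are given with and without them. The 3 female WT libraries have names beginning with C57 and the other 9 names beginning with CMV, so within females the genotype and whatever those names stand for cannot be told apart. The same 3 libraries are among the 6 WT libraries of the comparison of both sexes and enter every difference between the sexes. Whatever the names stand for could thus enter those results too. Female WT 1 and male cKO 3 stood apart, holding a value at least 2-fold above that of every other library for 239 (1.31%) and 199 (1.09%) of the 18197 genes tested, against at most 53 (0.291%) in the remaining libraries. All 9 marker genes of the dentate gyrus, CA1 and CA3 passed the filter and none was called in the comparison of both sexes. Only 0.137% of all genes were called higher and 0.011% lower, so none of 9 says little. No choroid plexus or meningeal fibroblast marker was called either. Over the 12 libraries the marker sums were 57.6 to 122.5 TPM for dentate gyrus, 109.1 to 157.2 TPM for CA1 and 315.5 to 518.5 TPM for CA3. Choroid plexus markers summed to between 47.9 and 4439 TPM and meningeal fibroblast markers to between 54.1 and 251.2 TPM.

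Serpins fold into a metastable structure with an exposed reactive loop. An inhibitory serpin offers this loop as bait to a serine or cysteine peptidase, and on cleavage it traps the peptidase in a covalent complex, so that each molecule is used once. Clade letters group the family by sequence: clade A holds secreted, mostly liver-derived proteins such as antitrypsin and antichymotrypsin, clade B holds intracellular proteins that lack a classical signal peptide, and the remaining clades hold antithrombin (C), heparin cofactor II (D), protease nexin (E), pigment epithelium-derived factor and antiplasmin (F), C1 inhibitor (G), a collagen chaperone (H) and neuroserpin (I). In brain the family is best known for protease nexin and neuroserpin, which restrain thrombin and tissue plasminogen activator around neurons and glia.

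The serpin transcripts of the hippocampus came mostly from a few genes. Averaged over the 12 libraries, the 50 members summed to 359.5 TPM, of which clade E held 35.5%, clade I 31.1%, clade B 19.0%, clade F 5.89%, clade H 3.42%, clade G 2.96% and clade A, the largest clade with 21 members, 1.80%. The order at the top was *Serpine2* (mean 125.4 TPM), *Serpini1* (111.9 TPM) and *Serpinb6a* (42.8 TPM), and the single-library ranges of the first pair, 108.8 to 135.7 TPM and 84.7 to 135.2 TPM, overlapped. Below them *Serpinf1*, *Serpinh1*, *Serping1* and *Serpinb1a* had ranges that also overlapped one another. The summed serpin level lay between 335.5 and 386.3 TPM in every library, so the total differed little between libraries while its make-up did: *Serpine2* and *Serpini1* together held 61.7% to 73.4% of it in 11 libraries and 54.9% in male cKO 3.

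**Figure D1:**
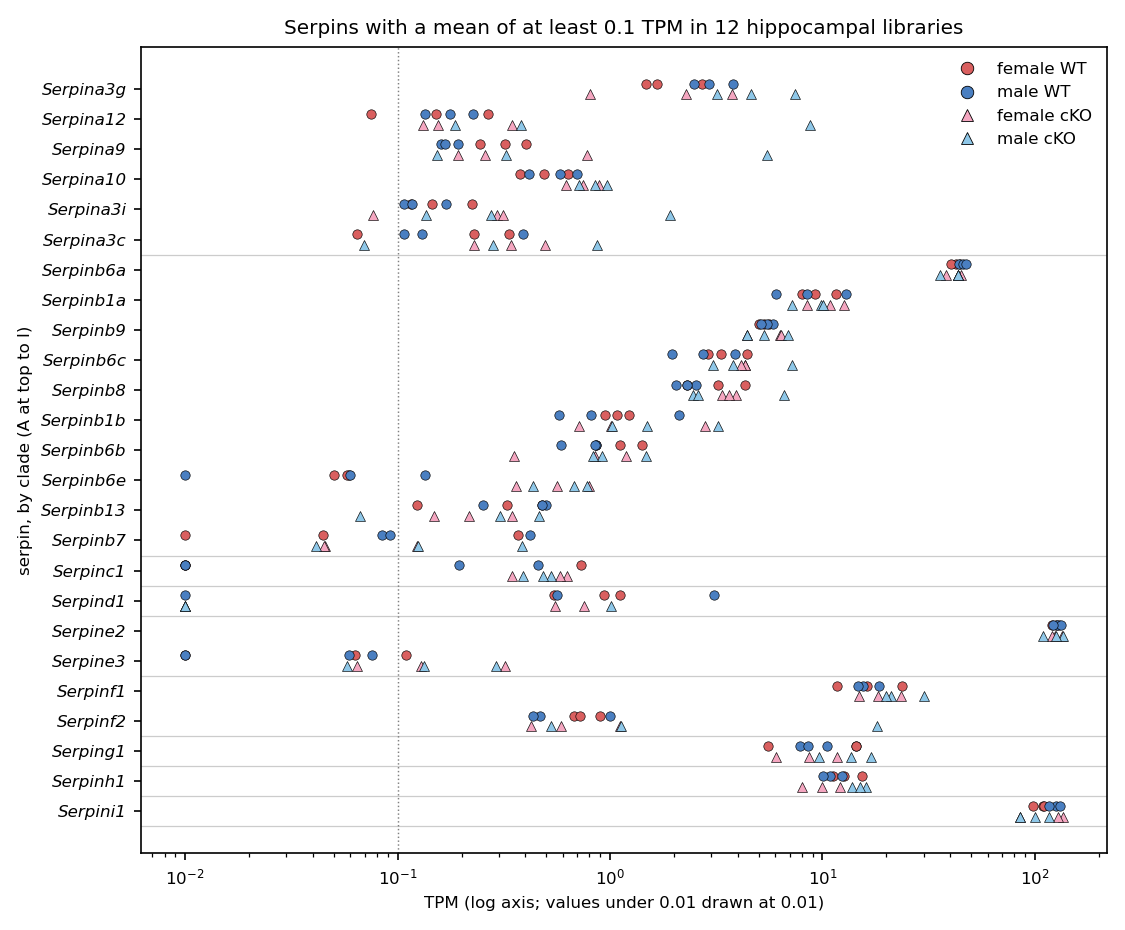
TPM of 25 serpins with a mean of at least 0.1 TPM (log axis) in each of the 12 libraries, ordered by clade and then by mean; circles are WT and triangles cKO, colours give sex and genotype, values under 0.01 are drawn at 0.01 and the dotted line marks 0.1 TPM. *Serpine2* and *Serpini1* lie near 100 TPM in all libraries, the 6 *Serpinb6e* triangles lie to the right of all 6 circles, and in *Serpina12*, *Serpina9*, *Serpina3i* and *Serpinf2* a single male cKO triangle lies far to the right.

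Of the 50 members, 26 had a mean of at least 0.1 TPM and were tested, among them 12 with a mean under 1 TPM, and 21 members were above 0 in all 12 libraries. *Serpinb6e* and *Serpine3* were the 2 tested members whose WT mean alone was under the filter, so both passed it through their cKO values. The other 24 were not tested. They were *Serpina1a*, *Serpina1b*, *Serpina1c*, *Serpina1d* and *Serpina1f* of the antitrypsin group, *Serpina3a*, *Serpina3b*, *Serpina3f*, *Serpina3j*, *Serpina3k* and *Serpina3m* of the antichymotrypsin group, *Serpina5*, *Serpina6*, *Serpina11*, *Serpina16*, *Serpinb1c*, *Serpinb2*, *Serpinb5*, *Serpinb9b*, *Serpinb9c*, *Serpinb9d*, *Serpinb11*, *Serpinb12* and *Serpini2*. None of them reached more than 0.379 TPM in any library, and 8 were above 0 in 1 library only. *Serpine3* (mean 0.108 TPM) was the lowest member inside the filter and *Serpinb9b* (mean 0.0830 TPM) the highest outside it.

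Comparing the 6 cKO with the 6 WT libraries, 1 of the 26 tested serpins, *Serpinb6e*, was called higher and none was called lower, where called means an adjusted p (limma, Benjamini-Hochberg over all 18197 genes) under 0.05 and a fold change over 1.2. Over all genes tested, 0.137% were called higher and 0.011% lower. *Serpinb6e* was also the single serpin whose 6 cKO values all lay above the 6 WT values, which 0.572% of all genes did, and no serpin had all 6 below, which 0.104% of all genes did. This gene passed the filter through its cKO values, so the shares of tested serpins that are higher in cKO are not independent of the filter. At an unadjusted p under 0.05, 4 of 26 serpins were higher in cKO (*Serpinb6e*, *Serpina10*, *Serpinc1* and *Serpinb6c*), beside 4.84% of all genes, and 0 were lower, beside 1.8%. A log2 fold change above 0 was found for 19 of 26, beside 55.8% of all genes, and the median log2 fold change was 0.37 over the serpins and 0.02 over all genes. That median was 0.35 after median ratio rescaling of the libraries and 0.33 after quantile normalization. It was 0.15 without male cKO 3, when 17 of the 25 serpins then tested were above 0. With no filter on low values the median was lower still, as given in the closing section. *Serpinb6e* and *Serpine3*, which passed the filter through their cKO values, are among the 19 above 0.

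*Serpinb6e*, an intracellular clade B gene of the *Serpinb6* group, was barely present in WT hippocampus and present in every cKO library. Its level was 0.05001, 0.0592 and 0.0577 TPM in female WT, 0, 0.0600 and 0.135 TPM in male WT, 0.795, 0.360 and 0.561 TPM in female cKO, and 0.433, 0.779 and 0.675 TPM in male cKO. The lowest cKO value thus lay above the highest WT value, in libraries of both sex labels. The means were 0.0603 ± 0.0432 TPM in WT and 0.601 ± 0.180 TPM in cKO (SD, n = 6 each), and the log2 fold change of TPM + 0.1 was 2.13 (SE 0.28, limma adjusted p = 0.00718). Because 0.1 TPM was added before the log2 step, this fold change understates that of the TPM values themselves. Its size depends on what is added: with 0.5 TPM it was 0.96 (adjusted p = 0.00956) and with 1 TPM 0.59 (adjusted p = 0.0143). When each library was left out in turn, the fold change stayed between 2.00 and 2.25 and the adjusted p between 0.00923 and 0.0264. With only the 9 CMV-named libraries, that is 6 cKO against 3 male WT, the log2 fold change was 2.13 and the adjusted p 0.149, which misses the threshold, and a filter at a mean of 1 TPM removes the gene. Despite the call, all values were below 1 TPM, and the depth that stands behind such values is not known. The WT mean alone lay under the filter of 0.1 TPM, so the gene passed it only through its cKO values.

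*Serpinb6e* lies at chr13:33832345-33843408 (GRCm38, minus strand), between *Serpinb6d*, which was at 0 in every library, and *Serpinb6c* and *Serpinb6a*. *Dek* is on the same chromosome, starting 13.2 Mb further on. It and *Serpinb6e* were the only called genes of the 629 tested on chromosome 13, beside 0.137% of all genes called higher and 0.011% lower. One of these 2 is the deleted gene itself. Within 0.5 Mb of *Serpinb6e* there were 13 tested genes including itself. Of these only *Serpinb6e*, around which the window was drawn, was called. An unadjusted p under 0.05 was found for 2, the other being *Serpinb6c*, beside 4.84% of all genes higher and 1.8% lower. These counts do not show a pattern along the chromosome. The level of *Serpinb6c* was 2.88, 3.35 and 4.41 TPM in female WT, 3.88, 1.95 and 2.75 TPM in male WT, 4.33, 4.30 and 4.14 TPM in female cKO, and 3.07, 7.17 and 3.77 TPM in male cKO. Its groups overlapped, with male cKO 2 the highest library (log2 fold change 0.46, SE 0.21, limma adjusted p = 0.747), and the value without male cKO 2 was 0.32.

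*Serpinb6a*, the most abundant clade B serpin and an inhibitor of trypsin-like peptidases and cathepsin G, differed between genotypes by less than the spread of the libraries. It was at 42.3, 44.2 and 40.3 TPM in female WT, 43.8, 45.9 and 47.4 TPM in male WT, 38.0, 44.9 and 43.6 TPM in female cKO, and 43.6, 43.6 and 35.6 TPM in male cKO, with a log2 fold change of -0.09 (SE 0.06, limma adjusted p = 0.887). The groups overlapped, with male cKO 3 and female cKO 1 the lowest libraries. *Serpinb6b* ranged from 0.587 to 1.41 TPM in WT and from 0.352 to 1.48 TPM in cKO, a log2 fold change of -0.07. The 4 genes are alike in sequence. Longest open reading frames read from GENCODE M21 transcripts were 79.3%, 79.8% and 81.9% identical between *Serpinb6e* and *Serpinb6a*, *Serpinb6b* and *Serpinb6c*, and 86.4% to 87.9% among those 3. Of the 31-base words of the *Serpinb6e* transcripts, 4.49% also occurred in transcripts of other genes, most often *Serpinb6c* (3.62%), against 22.9% for *Serpinb6c* and 29.0% for *Serpinb6a*, so reads from the latter pair are the more likely to be shared out among genes.

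**Figure D2:**
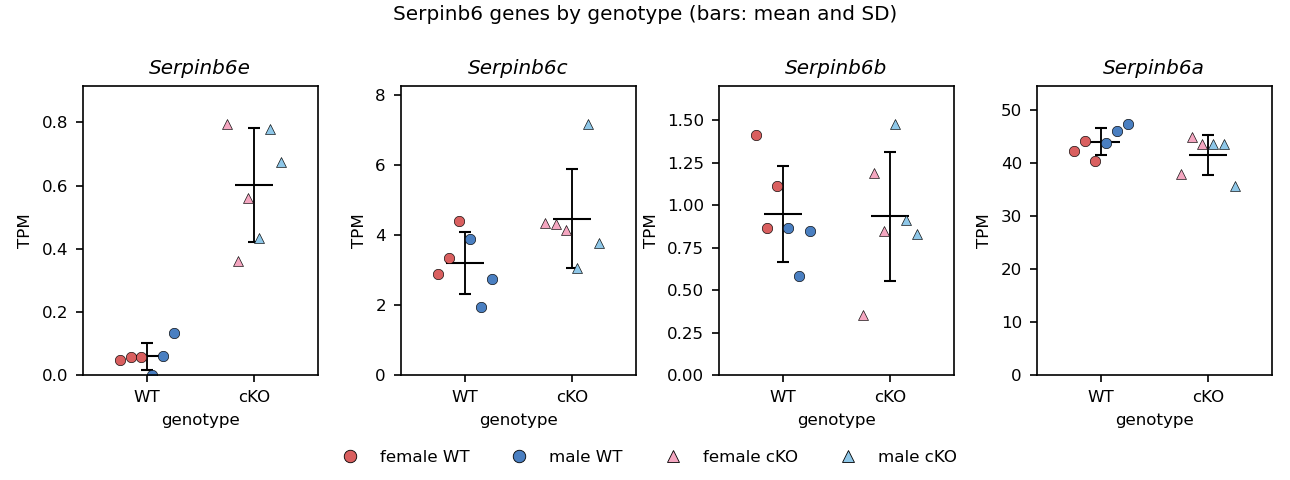
TPM of the 4 expressed *Serpinb6* genes in WT and cKO libraries; each point is a library, colours give sex and genotype, and bars show the mean and SD of 6 libraries on linear axes from 0. The 6 cKO values of *Serpinb6e* (0.360 to 0.795 TPM) lie above its 6 WT values (0 to 0.135 TPM), whereas the groups overlap for *Serpinb6c*, *Serpinb6b* and *Serpinb6a*.

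The stretch before the transcription start is shown for the called gene and for its neighbour *Serpinb6c*, whose groups overlapped, so that both can be read side by side. The 250 bases are given 5′ to 3′ on the gene's strand, from RefSeq annotation of GRCm38.p6, at chr13:33843409-33843658 (minus strand) for *Serpinb6e* and chr13:33905192-33905441 (minus strand) for *Serpinb6c*, with capitals reserved for 3 motifs searched on both strands: the TATA box TATAAA, the core of the CCAAT box, and TTCNNNGAA, the letters bound by STAT factors.
Serpinb6e: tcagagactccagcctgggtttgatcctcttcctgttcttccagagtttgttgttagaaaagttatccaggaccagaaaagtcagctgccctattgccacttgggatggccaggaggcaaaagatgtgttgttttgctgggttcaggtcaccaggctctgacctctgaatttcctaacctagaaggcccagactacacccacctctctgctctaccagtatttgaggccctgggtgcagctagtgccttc
Serpinb6c: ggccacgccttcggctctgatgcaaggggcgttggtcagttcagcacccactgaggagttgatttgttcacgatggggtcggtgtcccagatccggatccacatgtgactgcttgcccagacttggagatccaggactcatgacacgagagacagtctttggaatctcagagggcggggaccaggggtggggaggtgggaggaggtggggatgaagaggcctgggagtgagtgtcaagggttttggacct
Over the 205 bases that could be aligned the 2 stretches were 60.5% identical, well under the identity of the reading frames, and neither holds any of the 3 motifs. Against the stretches before 2 start sites of *Serpinb6a*, that of *Serpinb6e* was 59.9% and 55.1% identical. No unrelated pair was aligned, so the level that unrelated stretches reach is not known and 60.5% is no measure of kinship. Over all 32851 stretches of that length in the table, TATAAA was found in 12.4%, CCAAT in 33.8% and TTCNNNGAA in 7.02%. Of the 50 members 41 had an entry, and these letters were found before at least 1 start of 9 (22.0%), 17 (41.5%) and 8 (19.5%) of them, where a member with several starts had more than 1 chance to hold a motif.

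The pair of serpins best known in brain differed between genotypes by less than the spread of the libraries. *Serpine2*, protease nexin, an inhibitor of thrombin and of plasminogen activators made by glia, was at 119.9, 129.9 and 125.8 TPM in female WT, 127.2, 132.2 and 121.1 TPM in male WT, 124.9, 119.9 and 134.8 TPM in female cKO, and 108.8, 135.7 and 125.1 TPM in male cKO. The cKO values spanned the WT values on both sides (log2 fold change -0.02, SE 0.05, limma adjusted p = 0.988). *Serpini1*, neuroserpin, a neuronal inhibitor of tissue plasminogen activator, was at 109.2, 110.0 and 98.2 TPM in female WT, 126.4, 131.2 and 117.0 TPM in male WT, 135.2, 129.1 and 85.1 TPM in female cKO, and 99.9, 117.0 and 84.7 TPM in male cKO. Here the highest and the lowest library were both cKO, and the log2 fold change was -0.11 (SE 0.12, limma adjusted p = 0.938). By sex label it was 0.11 in females (unadjusted p = 0.503) and -0.32 in males (unadjusted p = 0.0687), with a difference of -0.43 (unadjusted p = 0.0816). Without the libraries labelled female cKO 3 and male cKO 1 the values were 0.32 (unadjusted p = 0.0259), -0.32 (unadjusted p = 0.0250) and -0.65 (SE 0.17, unadjusted p = 0.00429). The limma adjusted p of that difference was 0.323, so it was not called. Both female cKO libraries then left lay above all 3 female WT libraries, which are the C57-named ones. The share of all genes that separate in this way was not counted. The 2 male cKO libraries left were at 117.0 and 84.7 TPM, beside 117.0 TPM in the lowest male WT library. Read by the Y-linked genes, the 99.9 TPM of male cKO 1 would fall among female cKO, within the female WT range of 98.2 to 110.0 TPM. The 85.1 TPM of female cKO 3 would fall among male cKO, below every male WT value. A fit with these labels exchanged was not run.

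The remaining clade B serpins overlapped between genotypes. *Serpinb1a*, an inhibitor of neutrophil elastase and cathepsin G, was at 11.6, 8.02 and 9.20 TPM in female WT, 12.97, 6.03 and 8.49 TPM in male WT, 8.46, 12.6 and 10.9 TPM in female cKO, and 9.83, 10.01 and 7.22 TPM in male cKO. Both ends of that range were male WT libraries (log2 fold change 0.09, SE 0.18, limma adjusted p = 0.973), and the sign turned without male WT 2 (-0.03). *Serpinb9*, the granzyme B inhibitor, was at 5.39 ± 0.289 TPM in WT and 5.62 ± 1.07 TPM in cKO, and *Serpinb8* at 2.79 ± 0.848 and 3.76 ± 1.496 TPM (SD, n = 6 each). *Serpinb1b*, *Serpinb13* and *Serpinb7* had log2 fold changes of 0.47, -0.39 and -0.13, none with an unadjusted p under 0.05. Over the 10 tested clade B members the median log2 fold change was 0.06, over the 7 on chromosome 13 it was 0.09 and over the 3 on chromosome 1 -0.13. Neutrophils and mast cells, whose peptidases several clade B serpins meet, were scarce: their 6 marker genes summed to at most 7.81 TPM, and each of the 6 was at 0 in at least 1 library.

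All 6 tested clade A serpins had a log2 fold change above 0, and for all 6 the highest library was male cKO 3. *Serpina3g*, an antichymotrypsin relative that inhibits lysosomal cathepsins and the only clade A member with a mean above 1 TPM, was at 1.67, 1.47 and 2.70 TPM in female WT, 2.48, 3.78 and 2.92 TPM in male WT, 0.804, 2.28 and 3.75 TPM in female cKO, and 3.17, 4.59 and 7.44 TPM in male cKO. The lowest and the highest library were both cKO, and the log2 fold change was 0.34 (SE 0.42, limma adjusted p = 0.942), 0.08 without male cKO 3 and -0.01 without female WT 1 and male cKO 3. *Serpina10*, the protein Z-dependent inhibitor of activated factor X, was at 0.634, 0.375 and 0.488 TPM in female WT, 0.580, 0.697 and 0.414 TPM in male WT, 0.622, 0.743 and 0.889 TPM in female cKO, and 0.718, 0.852 and 0.967 TPM in male cKO. Only 1 cKO value, that of female cKO 1, lay within the WT range, and the log2 fold change of 0.52 (SE 0.20, unadjusted p = 0.0191) had a limma adjusted p of 0.628. *Serpina3c* had a log2 fold change of 0.55 with overlapping groups. The clade median was 0.66, and 0.30 without male cKO 3.

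In male cKO 3, and in no other library, *Serpinf2*, *Serpina12*, *Serpina9* and *Serpina3i* stood far above the rest. *Serpinf2*, antiplasmin, the inhibitor of plasmin, was at 18.04 TPM in that library and at 0.427 to 1.13 TPM in the other 11, 16.0 times the next highest. *Serpina12*, vaspin, an inhibitor of kallikreins named for its expression in visceral fat, was at 8.74 TPM there and at 0.0750 to 0.383 TPM in the other 11, 22.8 times the next highest. *Serpina9*, a gene of germinal centre B cells, was at 5.48 TPM against 0.153 to 0.778 TPM, and *Serpina3i* at 1.92 TPM against 0.0768 to 0.313 TPM. So 4 of 25 serpins (16.0%) were at least 2-fold above the next library in male cKO 3, beside 1.09% of all genes tested, and 9 of 25 (36.0%) had their highest value there, beside 19.5% of all genes. The other 5 of those 9 were *Serpina3g*, *Serpina10*, *Serpina3c*, *Serpinb8* and *Serpinf1*.

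With male cKO 3 the log2 fold changes of *Serpinf2*, *Serpina12*, *Serpina9* and *Serpina3i* were 0.81, 1.09, 0.87 and 0.77, and without it 0.06, 0.30, 0.23 and 0.31, in each case with no call. The WT and remaining cKO means of *Serpinf2* were 0.700 ± 0.224 TPM (SD, n = 6) and 0.757 ± 0.337 TPM (SD, n = 5). The 4 hepatocyte markers summed to 1313 TPM in male cKO 3, within the 37.9 to 4290 TPM of the others. Of these, *Ttr*, which is on the choroid plexus list too, was at 1313 TPM, *Apoa1* at 0.248 TPM (others 0.270 to 1.16 TPM), and *Alb* and *Fgb*, which define the cell type, at 0.0764 and 0 TPM. Meningeal fibroblast markers summed to 73.5 TPM in that library, within the 54.1 to 251.2 TPM of the others. Choroid plexus markers summed to 1372 TPM, within 47.9 to 4439 TPM, and red cell markers to 506.0 TPM, within 425.9 to 991.2 TPM. The 3 CA3 markers, however, summed to 518.5 TPM, above the 315.5 to 422.3 TPM of the others. The 4 endothelium markers summed to 103.2 TPM, below the 105.1 to 124 TPM of the others. The part of either in the serpin values was not tested. None of the transcripts of *Serpinf2* and *Serpina12* shared a 31-base word with another gene, and 2.50% of the words of *Serpina9* and 27.3% of those of *Serpina3i* did.

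**Figure D3:**
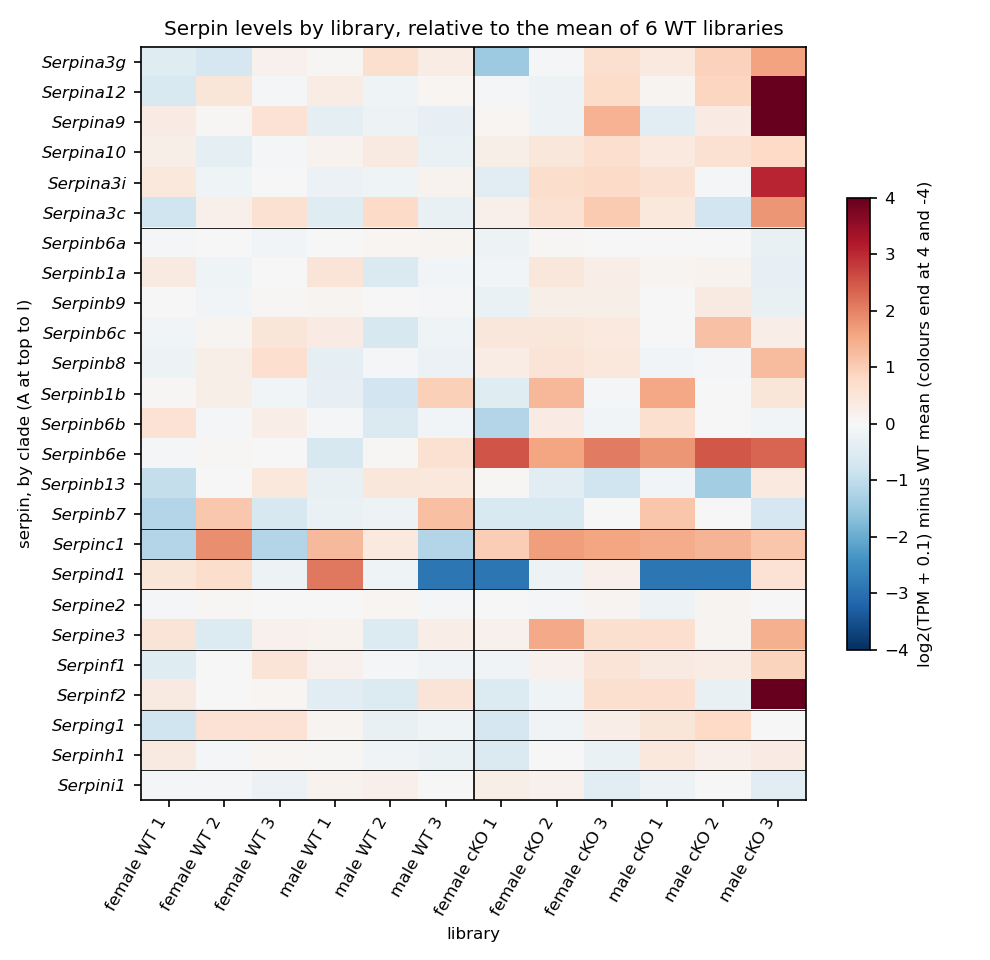
Difference of log2(TPM + 0.1) from the mean of the 6 WT libraries for 25 serpins (rows, by clade) in 12 libraries (columns, WT left and cKO right); red is higher, blue lower, and the colours end 4 units from 0 on either side. The *Serpinb6e* row is red in all 6 cKO columns, whereas the darkest cells of *Serpina12*, *Serpina9*, *Serpina3i* and *Serpinf2* all lie in the male cKO 3 column.

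The stretches before the start of *Serpinf2* (chr11:75439502-75439751, minus strand), *Serpina12* (chr12:104044444-104044693, minus strand) and *Serpina3i* (chr12:104262872-104263121, plus strand) are shown because these genes were high together in male cKO 3, beside that of *Serpina3g* (chr12:104235897-104236146, plus strand), a close relative of *Serpina3i*. Source, orientation and motifs are those given above for the *Serpinb6* pair.
Serpinf2: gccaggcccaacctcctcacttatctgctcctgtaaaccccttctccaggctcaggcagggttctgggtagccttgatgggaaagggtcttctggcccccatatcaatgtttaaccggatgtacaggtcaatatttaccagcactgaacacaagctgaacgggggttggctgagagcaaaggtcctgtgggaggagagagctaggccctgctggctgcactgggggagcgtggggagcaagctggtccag
Serpina12: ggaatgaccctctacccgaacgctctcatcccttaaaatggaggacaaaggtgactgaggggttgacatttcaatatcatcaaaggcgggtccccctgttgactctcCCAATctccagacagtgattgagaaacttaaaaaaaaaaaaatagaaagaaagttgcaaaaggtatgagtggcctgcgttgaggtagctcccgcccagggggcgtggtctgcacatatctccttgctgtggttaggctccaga
Serpina3i: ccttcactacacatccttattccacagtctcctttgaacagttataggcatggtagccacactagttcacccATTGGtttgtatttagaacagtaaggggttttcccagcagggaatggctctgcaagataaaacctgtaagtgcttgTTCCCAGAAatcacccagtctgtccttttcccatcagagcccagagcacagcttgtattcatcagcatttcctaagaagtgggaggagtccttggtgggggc
Serpina3g: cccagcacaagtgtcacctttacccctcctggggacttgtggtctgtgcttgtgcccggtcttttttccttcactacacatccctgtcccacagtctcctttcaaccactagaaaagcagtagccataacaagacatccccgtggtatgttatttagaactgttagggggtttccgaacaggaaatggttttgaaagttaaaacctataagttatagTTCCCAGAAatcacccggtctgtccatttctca
Both antichymotrypsin relatives hold the word TTCCCAGAA, a TTCNNNGAA match that reads as such on both strands, beginning 102 bases before the start in *Serpina3i* and 33 bases before it in *Serpina3g*, and over the 181 bases that could be aligned they were 77.9% identical. *Serpina12* holds CCAAT, *Serpina3i* holds it on the opposite strand, and *Serpinf2* holds none of the 3 motifs, so no motif was shared by the 3 genes. *Serpina9* is named only.

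**Figure D4:**
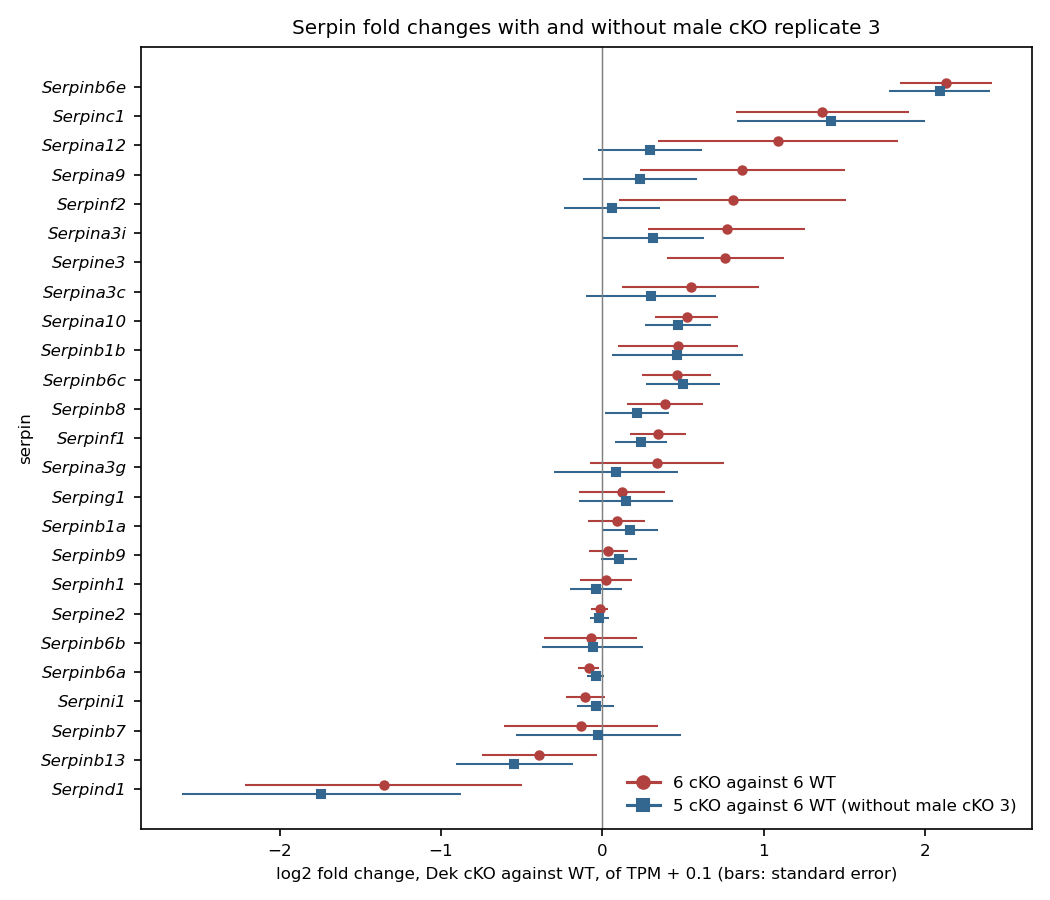
Log2 fold change of TPM + 0.1, *Dek* cKO against WT, for 25 serpins with all libraries (circles) and without male cKO 3 (squares); bars show the standard error, and *Serpine3* has no square because its mean then falls under 0.1 TPM. *Serpinb6e* lies at 2.13 and 2.09 in the 2 fits, while *Serpinf2* moves from 0.81 to 0.06 and *Serpina12* from 1.09 to 0.30.

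The coagulation serpins were low in hippocampus. *Serpinc1*, antithrombin, was at 1.68e-06, 0.726 and 0 TPM in female WT, 0.459, 0.195 and 0 TPM in male WT, 0.347, 0.627 and 0.581 TPM in female cKO, and 0.530, 0.482 and 0.387 TPM in male cKO. Thus 2 WT libraries were listed at 0 and a further one far below every cKO value, while the highest value was in WT, and the log2 fold change of 1.36 (SE 0.54, unadjusted p = 0.0239) had a limma adjusted p of 0.664. Of the 31-base words of the *Serpinc1* transcripts, 33.7% were shared with its neighbour *Zbtb37*, so these values are uncertain. *Serpind1*, heparin cofactor II, was at 0 in 1 WT and 3 cKO libraries and ranged up to 3.10 TPM in male WT 1 (log2 fold change -1.36, unadjusted p = 0.139). *Serpinf2* was at 0.901, 0.679 and 0.722 TPM in female WT, 0.470, 0.434 and 0.995 TPM in male WT, 0.427, 0.587 and 1.11 TPM in female cKO, and 1.13, 0.530 and 18.04 TPM in male cKO, with no order by genotype outside male cKO 3.

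The secreted serpins of matrix and vessels were at 5.51 to 30.1 TPM, and their values overlapped between genotypes. *Serpinf1*, pigment epithelium-derived factor, a non-inhibitory serpin with antiangiogenic activity, was at 11.8, 16.1 and 23.6 TPM in female WT, 18.5, 15.5 and 14.7 TPM in male WT, 14.8, 18.3 and 23.5 TPM in female cKO, and 21.1, 19.9 and 30.1 TPM in male cKO. The groups overlapped (log2 fold change in both sexes 0.35, SE 0.17, limma adjusted p = 0.788, and 0.24 without male cKO 3). By sex label the log2 fold change was 0.17 in females (limma unadjusted p = 0.512) and 0.52 in males (unadjusted p = 0.0583). Without the libraries labelled female cKO 3 and male cKO 1 it was -0.003 (unadjusted p = 0.992) and 0.59 (unadjusted p = 0.0585). *Serping1*, the inhibitor of the complement proteases C1r and C1s, was at 5.51, 14.4 and 14.4 TPM in female WT, 10.5, 7.82 and 8.53 TPM in male WT, 6.03, 8.65 and 11.7 TPM in female cKO, and 13.6, 16.9 and 9.59 TPM in male cKO. Its log2 fold change was 0.12 (SE 0.27, limma adjusted p = 0.979), and the sign turned without female WT 1 (-0.04). The lowest *Serping1* values, in female WT 1 and female cKO 1, were in libraries with low meningeal marker sums (103.8 and 54.1 TPM). The highest, in male cKO 2, was in the library with the highest sum (251.2 TPM). Other libraries departed from this order, and male cKO 3, with a sum of 73.5 TPM, had 9.59 TPM. Female cKO 3 had a lower sum than female WT 1 (101.7 TPM) but 11.7 TPM of *Serping1*. Female cKO 2 had a sum of 160.3 TPM and 8.65 TPM of *Serping1*. The part of meningeal tissue in these values was not tested. In such bulk samples fewer cells of a type and less RNA per cell cannot be told apart.

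*Serpinh1*, a chaperone of collagen in the endoplasmic reticulum, also had fold changes of opposite sign in the sex labels, without a call. It was at 15.4, 11.2 and 12.6 TPM in female WT, 12.3, 10.9 and 10.01 TPM in male WT, 8.04, 12.1 and 9.95 TPM in female cKO, and 15.99, 13.8 and 15.03 TPM in male cKO. By label, all 3 male cKO values lay above all 3 male WT values, whereas the female groups overlapped. The share of all genes that separate 3 against 3 in this way was not counted. The values 15.99 and 9.95 TPM are from male cKO 1 and female cKO 3, whose Y-linked genes went against the label. Read by those genes, 9.95 TPM would fall among male cKO, just below the lowest male WT value of 10.01 TPM. The 15.99 TPM would fall among female cKO, above every female WT value. No fit with these labels exchanged was run, and the fold changes below follow the labels. The log2 fold change was -0.39 in females (unadjusted p = 0.0326), 0.43 in males (unadjusted p = 0.0195) and 0.02 in both sexes (limma adjusted p = 0.995). The difference between the sexes was 0.82 (SE 0.22, unadjusted p = 0.0037) with a limma adjusted p of 0.966, and 0.77 (unadjusted p = 0.0184, adjusted p = 0.470) without the libraries labelled female cKO 3 and male cKO 1. Without these libraries the change within a sex was -0.39 in females (unadjusted p = 0.0702) and 0.38 in males (unadjusted p = 0.0761), so neither passed an unadjusted 0.05. Over all genes tested, 2.07% had an unadjusted p under 0.05 in this direction and 2.16%, but no serpin, in the other, and 17 of 26 serpins and 51.3% of all genes had a difference above 0. Without the libraries of conflicting sex these were 19 of 26 and 47.5%, and *Serpini1* passed an unadjusted 0.05 in the other direction. The meningeal marker sum was 54.1 to 160.3 TPM in female cKO, 103.8 to 175.1 TPM in female WT, 136.8 to 147.2 TPM in male WT and 73.5 to 251.2 TPM in male cKO, and its part in the result was not tested. Male cKO 3, at 15.03 TPM of *Serpinh1*, had a meningeal sum below that of every WT library.

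**Figure D5:**
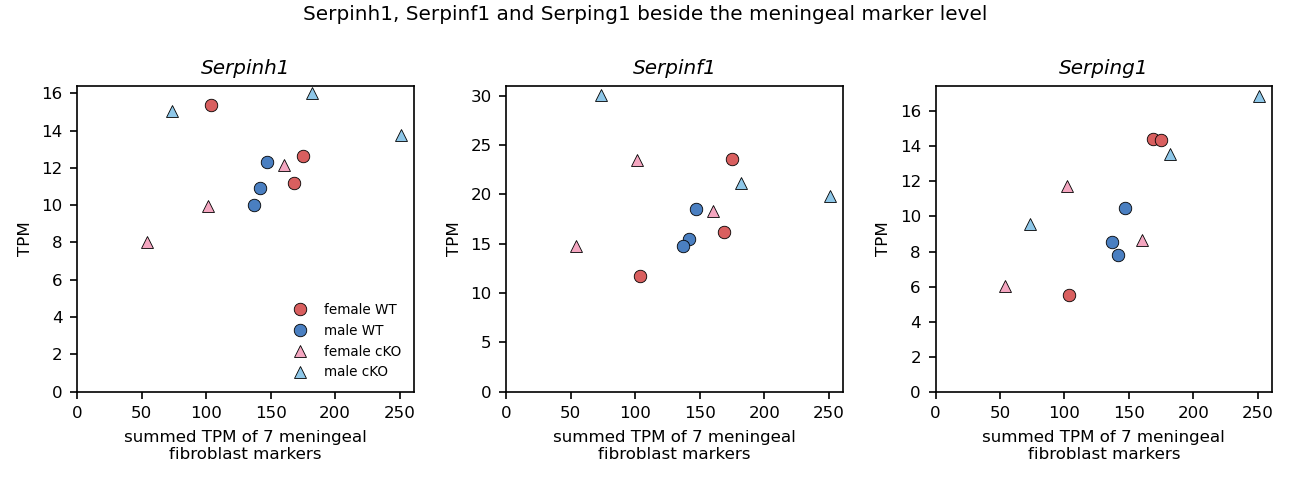
TPM of *Serpinh1*, *Serpinf1* and *Serping1* (vertical axes from 0) against the summed TPM of 7 meningeal fibroblast markers in the same library (horizontal axis); each point is 1 of 12 libraries, with shape and colour by group. Female cKO 1 is lowest on the horizontal axis (54.1 TPM) and male cKO 2 highest (251.2 TPM), and *Serping1* is at 6.03 and 16.9 TPM in them.

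Within each sex no serpin was called by limma. In females 1 of 26 was higher at an unadjusted p under 0.05 (*Serpinb6e*, log2 fold change 2.06, beside 3.91% of all genes) and 1 was lower (*Serpinh1*, beside 1.88%), and 17 of 26 were above 0 (54.3% of all genes). Without the libraries of conflicting sex *Serpinb6e* and *Serpini1*, both higher, were the serpins at an unadjusted p under 0.05 in females. Then 11 of 26 were above 0, beside 56.7% of all genes. The serpins thus went from above to below the share of all genes. In males 2 were higher (*Serpinb6e*, 2.20, and *Serpinh1*, beside 3.68%) and 0 were lower (beside 1.78%), and 19 of 26 were above 0 (55.2% of all genes), and 20 of 26 (52.1% of all genes) without those libraries. Over all genes, 0.011% were called higher and 0.0055% lower in either sex, and 0 in the interaction. The serpin median log2 fold change was 0.11 in females and 0.53 in males, and 0.33 in males without male cKO 3. For *Serpinb6e* the difference between the sexes was 0.14 (SE 0.61, limma adjusted p = 0.997), and without the libraries of conflicting sex its log2 fold change was 2.04 in females and 2.41 in males. Without those 2 libraries the serpin median of the difference between the sexes went from 0.25 to 0.48.

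No partner gene of the serpins was called. Of 44 peptidases that serpins inhibit, such as plasminogen activators, thrombin, complement proteases and cathepsins, 29 were tested, and of 27 receptors and cofactors that clear or assist serpins all 27 were tested. Of these 56, by limma, 1 was higher and 0 lower at an unadjusted p under 0.05, beside 4.84% and 1.8% of all genes, and their median log2 fold change was 0.08, beside 0.02. The 1 was *C1ra*, the complement protease C1r that *Serping1* inhibits. It was at 1.83, 1.92 and 2.00 TPM in female WT, 1.86, 1.83 and 1.93 TPM in male WT, 2.79, 3.03 and 1.97 TPM in female cKO, and 2.99, 2.01 and 2.40 TPM in male cKO. The WT values were tightly grouped and only female cKO 3 fell within them (log2 fold change 0.38, SE 0.13, limma adjusted p = 0.596).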

How the data were processed

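RNA was isolated from microdissected hippocampus of 12 mice, and poly-A selected, stranded libraries were sequenced as paired-end reads. The authors deposited their values as TPM, each library in a column of 1 table. The labels' processing notes list kallisto and mm10, whereas the published methods describe alignment with STAR and quantification with Salmon, and which of them wrote the table is not given in the sources used here. TPM keeps no counts, so depth is unknown, no counting interval is given and the count model of the published methods could not be used. All columns were matched to samples by name, and groups follow the labels, which do not say that libraries with the same number came from paired animals.

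Of the 26409 rows 25245 had an Ensembl ID in GENCODE M21, from which symbols and gene types were taken. Genes whose mean reached 0.1 TPM, 18197 in all, were tested on log2(TPM + 0.1) with limma 3.58.1 in R 4.3.3 (trended prior variance, two-sided), in 2 groups of 6 and in 4 groups of 3, with Benjamini-Hochberg adjustment over all of them. Fold changes are on this scale and understate those of low genes. With 3 or 6 libraries a group, p-values set the difference between groups against the spread between libraries. That spread is pooled over the groups of a fit and drawn by limma toward a trend over all genes. In a simulation of the comparison of 6 with 6 libraries over 18197 genes, limma recovered 66% of 200 genes given a log2 change of 1 and made 6 false calls. The simulated noise was normal and independent, with the spread found within the 4 groups. No simulated library stood apart as male cKO 3 did, so the share recovered need not hold for the real libraries. Full values are given for serpins called in any comparison, for those with an unadjusted p under 0.05 or with groups that do not overlap in both sexes, and for the 2 most abundant of each clade at 1 TPM or more; *Serpinh1*, *Serpini1*, *Serpina9*, *Serpina12* and *Serpina3i* by sex or library were also singled out after their values were seen, as was the removal of female WT 1 and male cKO 3. Members and lists were chosen with earlier results of these data known. Shared sequence was measured as 31-base words over all GENCODE M21 transcripts, and identity by global alignment with Biopython 1.88. The promoter sequences are from RefSeq on GRCm38.p6. *Klkb1* and *C1rb* of the peptidase list had no row in the table. Of the tested members, 1 enters the counts and medians over 26 serpins and is otherwise not reported here, so that figures and counts by library hold 25.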

Additional observations from a re-analysis of the deposited data

Results flagged for a closer look

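In a group of 6, a library was marked where its gap to the nearest of the others on the log2(TPM + 0.1) scale, divided by the range of the group, was above Dixon's critical value. Of 50 groups of 6 (25 serpins in WT and in cKO) 4 were marked, all in cKO, and chance marks about 1 in 20. Male cKO 3 was the high library in 3 of them: *Serpinf2* (18.04 TPM, others 0.427 to 1.13 TPM in cKO), *Serpina12* (8.74 TPM, others 0.132 to 0.383 TPM) and *Serpina3i* (1.92 TPM, others 0.0768 to 0.313 TPM). The fourth was *Serpinb7*, a clade B serpin of skin and kidney mesangium, at 0.385 TPM in male cKO 1 and 0.0415 to 0.124 TPM in the other cKO libraries. No serpin was called for a difference between the sexes.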

How the results depend on the processing

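*Serpinb6e* had a log2 fold change above 0 under all 23 alternatives, at 0.59 (1 TPM added) to 2.25 beside 2.13, and was called under all but 2, in which its adjusted p was 0.110 (replicate block, log2 fold change 2.13) and 0.149 (only CMV-named libraries). With these, and with a filter at a mean of 1 TPM, which drops the gene, 0 serpins were called in both sexes. Same-numbered libraries of a sex did not deviate together (correlations -0.04 to 0.04), so the replicate numbers are taken as names. Under the replicate block the counts of serpins at an unadjusted p under 0.05 were 1 in females, 6 in males and 3 for the interaction, and 2 for the partners.

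Counts at an unadjusted p under 0.05 moved with the setting as follows. In both sexes (4) they were 1 with a filter at 1 TPM and 2 without the libraries of conflicting sex, in females (2) 5 with no filter and 1 with a filter at 1 TPM, in males (2) 1 with that filter and 6 without the libraries of conflicting sex, for the interaction (1) 3 without those and 2 without female WT 1 and male cKO 3, and for the partners (1) 4 with no filter, 2 with a prior variance without trend, 4 with only CMV-named libraries, 2 without the libraries of conflicting sex and 2 without the 2 that stand apart. The serpin median log2 fold change in both sexes (0.37) was 0.12 with no filter and 0.13 without the 2 that stand apart, in males (0.53) 0.25 and 0.33, and for the interaction (0.25) 0.48 without the libraries of conflicting sex.

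Leaving out each library in turn gave, for both sexes, 3 to 6 serpins at an unadjusted p under 0.05 and a median of 0.15 (without male cKO 3) to 0.45, for females 1 to 3 and a median of -0.01 to 0.26, for males 2 to 8 (without male cKO 2) and 0.33 (without male cKO 3) to 0.58, for the interaction 1 to 3 and 0.0763 (without female cKO 1) to 0.50 (without female WT 1), and for the partners 1 to 3 and 0.05 to 0.09. Fold changes near 0 turned sign: *Serpinb1a* (-0.0289 to 0.19 with 1 library left out), *Serpine2* (-0.0415 to 0.0223, and 0.0036 without the libraries of conflicting sex), *Serping1* (-0.037 to 0.28, -0.0082 without those, -0.0109 without the 2 that stand apart), *Serpinh1* (-0.0563 to 0.14, -0.0047 without those of conflicting sex) and *Serpina3g* (-0.0133 without the 2 that stand apart). The causes were not tested. TPM gives no depth, so serpins under 0.1 TPM could not be compared, and values under 1 TPM rest on an unknown number of reads.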
